A study of Homo sapiens with 4 samples.

Results

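The 49 genes described here are interferon-stimulated genes and genes of class I antigen presentation. They were listed by symbol, with no threshold on their read counts, and all 49 were found among the 23228 gene symbols counted in each sample. RNA was sequenced from ovarian cancer stem cells (OCSCs) labelled as sorted from SKOV3, an established human ovarian cancer line, for aldehyde dehydrogenase activity (ALDH+). The sorted cells were grown as spheroids with B27, EGF, bFGF, hydrocortisone and insulin in both groups, and received either vehicle (2 samples) or 5 µM LY500307, a synthetic agonist of estrogen receptor beta (2 samples), for 24 h. The data therefore describe 1 sorted population of 1 line at 1 dose and 1 time. Reads were counted per gene symbol by the authors, and the gene totals ranged from 28841701 to 34943882 reads per sample. The labels do not say whether replicates were separate cultures, so p-values measure only the spread between these samples, which may be technical.

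Interferons are secreted cytokines that cells release on sensing foreign or misplaced nucleic acid. They bind receptors coupled to JAK kinases, which activate STAT transcription factors, and STAT complexes with IRF9 bind the interferon-stimulated response element (ISRE) in target promoters. Target genes encode proteins that block viral entry, translation and replication. Others encode parts of the class I pathway, in which peptides trimmed in the endoplasmic reticulum are loaded on HLA molecules bound to B2M and shown to T cells. Many carcinoma lines transcribe part of this set at a steady level without added interferon.

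The labelled cell type was checked against marker genes. EPCAM was at 194 to 240 CPM (reads scaled to library size with TMM factors) and lay at the 97.1 percentile of genes by level per kilobase. PAX8 had 0 reads in every sample, KRT7 had 0 to 1, KRT19 had 0 to 2 and KRT8 had 9 to 33. ERBB2, known to be amplified in SKOV3, was at 48.7 to 59.4 CPM, the 55.6 percentile by level per kilobase. CDKN2A, known to be deleted in SKOV3 and looked up after the other values were seen, had 834 to 1107 reads. The ERBB2 and CDKN2A values go against what is known of SKOV3 in all 4 samples. The study's methods state that the identity of its cell lines was established by DNA profiling of short tandem repeats. The identity of the cells behind these 4 samples was not tested here. Of 14 immune cell markers, 2 passed the expression filter, and the pan-leukocyte gene PTPRC had 0 to 4 reads. The summed level of the 14 markers was 13.6 to 15.3 CPM with vehicle and 12.8 to 19.6 CPM with LY500307, most of it from CD68. The summed level of 8 stromal and endothelial markers was 464 to 475 CPM with vehicle and 546 to 653 CPM with LY500307, most of it from COL1A1 and COL1A2, while the endothelial genes PECAM1 and CDH5 had 0 to 4 and 0 to 1 reads. COL1A2 had a log2 fold change of 0.44, and it was higher by 0.23 in LY500307 replicate 1 and by 0.63 in replicate 2 on the log2(CPM + 0.5) scale. COL1A1 had a log2 fold change of 0.28, and both collagen genes had an unadjusted p below 0.05. DCN and LUM, of the same list, were lower in both treated samples than in both vehicle samples, with log2 fold changes of -0.20 and -0.10. PDGFRB had one of 0.23 with overlapping groups. MUC1, an epithelial marker, was at 8.74 and 8.66 CPM with vehicle and at 6.66 and 4.92 CPM with LY500307, and was called lower with a log2 fold change of -0.59. The other epithelial markers tested had positive values and were not called. KRT18 (0.30) and ERBB2 (0.21) were higher in both treated samples, while the groups overlapped for EPCAM (0.02) and KRT8 (0.39). The part of these markers in the results below was not tested. In bulk RNA, fewer cells of a kind and less RNA per cell cannot be told apart.

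The set was partly on and partly silent before treatment. By level per kilobase of canonical transcript (CPM per kb), the highest members in vehicle samples were B2M, the light chain of class I molecules, and IFITM3, a membrane protein that blocks viral entry. Their vehicle means were 301 and 298 CPM per kb, and their ranges over the vehicle samples, 290 to 311 and 284 to 312, overlapped. IFITM1 followed at 178, BST2 (tetherin) at 106, HLA-C at 70.1 and IFIT1 at 62.7 CPM per kb, and these 4 did not overlap their neighbours in the order. Among members that were tested, the lowest were OASL at 0.0484, SP100 at 0.0672 and NLRC5 at 0.129 CPM per kb. In CPM, 9 members had a vehicle mean of 100 or more, 22 from 10 to 100, 9 from 1 to 10 and 9 under 1.

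**Figure D1:**
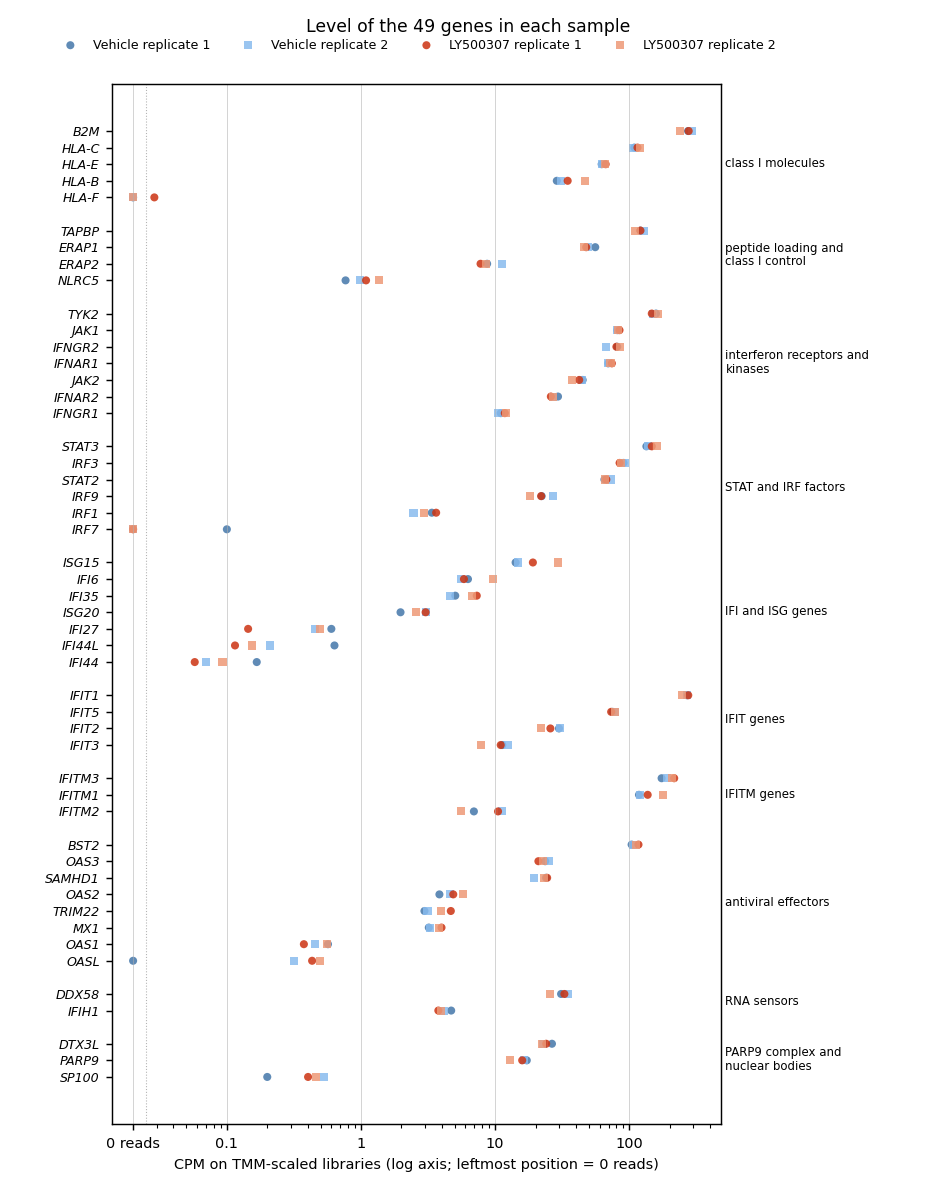
Level of each of the 49 genes in CPM (log axis) in the 2 vehicle samples (blue) and the 2 LY500307 samples (red), with replicate 1 as circles and replicate 2 as squares, grouped by role and ordered by mean level; samples with 0 reads are drawn at the left edge. Levels run from 0 to 1 reads for HLA-F to above 200 CPM for B2M and IFIT1, and for most genes the 4 samples lie close together.

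In all, 4 of the 49 members had too few reads to be tested. HLA-F, a non-classical class I gene, had 0 and 0 reads with vehicle and 1 and 0 reads with LY500307. IRF7, the factor that amplifies type I interferon production, had 3 and 0 reads with vehicle and 0 and 0 with LY500307. IFI44 had 5 and 2 reads against 2 and 3, and its neighbour IFI44L had 19 and 6 against 4 and 5. A count of 0 allows up to 0.0864 to 0.106 CPM, the level of 3 reads in these libraries, and this limit covers counting error only. The 13 interferon genes present in the files had at most 2 reads in any sample.

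After LY500307, 2 of the 45 members tested were higher and 0 were lower at the criteria of the study's methods, which ask for p below 0.05 without adjustment and a log2 fold change of more than 0.5 in size. Among all 14473 genes tested, 2.76% were called higher and 1.86% lower, so the members' share, 4.44% in all, was near the 4.62% called among all genes. The genes called were ISG15, which encodes a ubiquitin-like modifier, and IFI35, an interferon-induced leucine zipper protein. With no regard to fold size, 5 members had an unadjusted p below 0.05 (11.1% of members tested, against 11.6% of all genes). Of these, 4 were higher and 1 was lower, where 6.09% of all genes were higher and 5.50% lower. None had an adjusted p below 0.05 with edgeR, where the lowest was 0.422 and 0 of all genes passed. DESeq2 called the same number of members, 2 higher and 0 lower, against 4.01% of all genes (2.57% higher and 1.44% lower). With DESeq2, 0 members had an adjusted p below 0.05, against 0.138% of all genes (0.0553% higher and 0.0829% lower).

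The log2 fold changes of the 45 members ran from -0.74 to 1.55 with a median of 0.04, and the median over all genes tested was 0.00. Positive values were found for 24 members (53.3%) and negative values for 21 (46.7%), against 50.0% each among all genes tested. Both LY500307 samples lay above both vehicle samples in 17 members (37.8%, against 24.2% of all genes tested) and below them in 10 (22.2%, against 24.4%). OASL, with the value of 1.55, is counted among the positive members and among those above. It passed the expression filter only through its LY500307 samples, so its place in these counts depends on the samples where it is high. The smallest two-sided p of an exact permutation test with 2 against 2 samples is 0.33, and no gene was tested in that way.

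**Figure D2:**
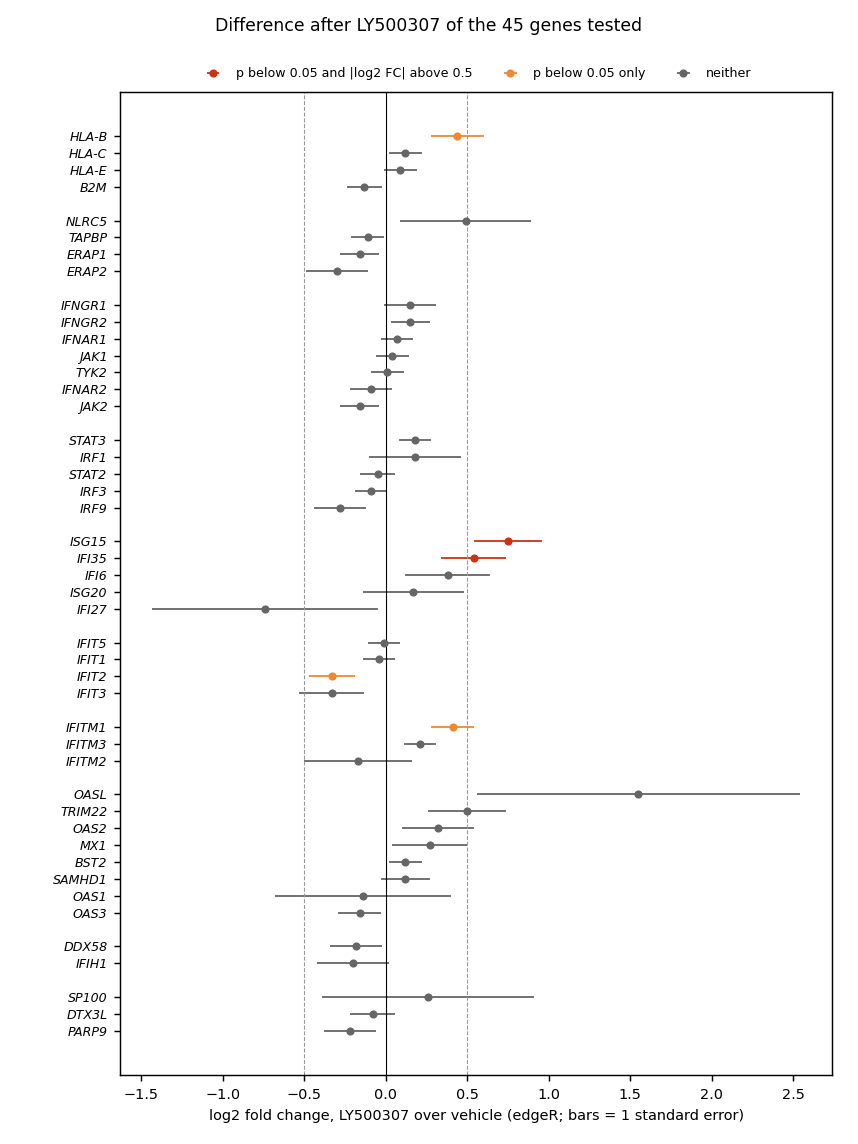
Log2 fold change of LY500307 over vehicle for the 45 genes tested, from edgeR, with bars of 1 standard error and dashed lines at 0.5 on either side of 0; red marks the 2 genes that met both criteria and orange the 3 that met the p criterion alone. Most points lie between the dashed lines, and the widest bar, 0.99 for OASL, belongs to a gene with 0 to 16 reads.

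Among the IFI and ISG genes, ISG15 was at 14.2 and 14.7 CPM in the vehicle samples and at 19.1 and 29.6 CPM in the LY500307 samples. Both treated samples were higher, and they differed from each other more than the vehicle samples did. Its mean CPM rose 1.68-fold, from 14.5 ± 0.350 to 24.4 ± 7.45 (SD, n = 2 each). The log2 fold change was 0.75 (standard error 0.21, edgeR adjusted p = 0.422). Leaving out LY500307 replicate 2 gave 0.40 and ended the call, and leaving out LY500307 replicate 1 gave 1.03.

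IFI35 was at 5.04 and 4.64 CPM with vehicle and at 7.29 and 6.74 CPM with LY500307. The treated samples were close to each other and both above the vehicle samples. The mean rose from 4.84 ± 0.278 to 7.02 ± 0.386 CPM (SD, n = 2 each), 1.45-fold. The log2 fold change was 0.54 (standard error 0.20, edgeR adjusted p = 0.422), near the limit of 0.5. The call was lost without vehicle replicate 1, vehicle replicate 2 or LY500307 replicate 1, where the log2 fold change was 0.48 to 0.60.

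The other members of this group did not meet the criteria. IFI6, a mitochondrial protein, was at 6.27 and 5.59 CPM with vehicle, and at 5.85 and 9.59 CPM with LY500307. Only LY500307 replicate 2 stood above the vehicle samples, and the log2 fold change was 0.38 (standard error 0.26). ISG20, an exonuclease, had 59 to 105 reads per sample and a log2 fold change of 0.17. IFI27 had 5 to 18 reads and a log2 fold change of -0.74 with a standard error of 0.69. Leaving out LY500307 replicate 1 moved it to -0.09, and leaving out LY500307 replicate 2 moved it to -1.85.

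**Figure D3:**
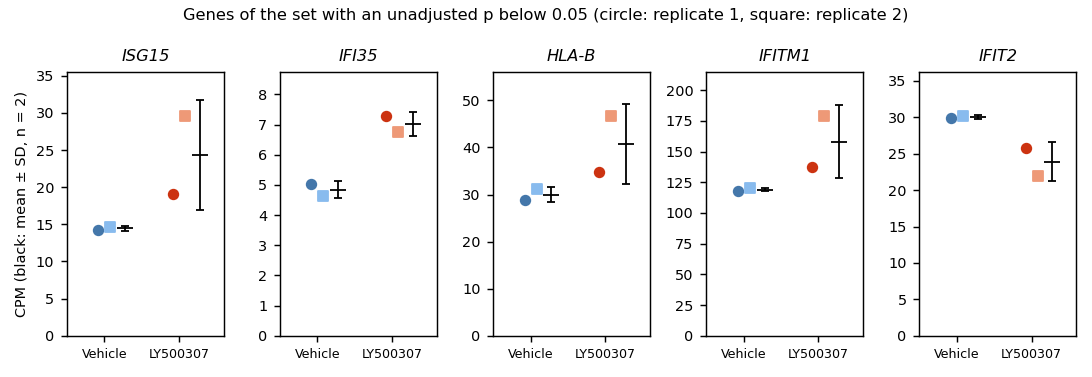
CPM of the 5 genes with an unadjusted p below 0.05 in each sample, with vehicle in blue, LY500307 in red and black bars for the mean ± SD of 2 samples; each axis starts at 0. ISG15, HLA-B and IFITM1 show a higher LY500307 replicate 2 than replicate 1, whereas for IFI35 the 2 treated samples lie together and for IFIT2 both lie below vehicle.

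In the class I group, HLA-B, a classical heavy chain, was at 28.8 and 31.1 CPM with vehicle and at 34.7 and 46.7 CPM with LY500307. Both treated samples were above vehicle. The log2 fold change was 0.44 (standard error 0.16), with an unadjusted p that passed and a fold that did not. Leaving out LY500307 replicate 2 gave 0.21, and leaving out LY500307 replicate 1 gave 0.64, which met the criteria. HLA-C was at 109 and 107 CPM against 115 and 121 CPM, and HLA-E, the ligand of NKG2A receptors, at 62.2 and 63.1 against 66.6 and 66.3 CPM. These heavy chain genes were higher in both treated samples by log2 fold changes of 0.12 and 0.09, with a standard error of 0.10 for each, and neither had p below 0.05. B2M was at 274 and 293 CPM with vehicle and at 277 and 239 CPM with LY500307, so that the groups overlapped, and its log2 fold change was -0.13.

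HLA class I heavy chain genes resemble each other in sequence. In each sample, 32.3% to 33.4% of the tally was for alignments to more than 1 place, which were not counted on genes. A read with several places may be tallied more than once, and the loss for each gene was not measured. The levels of the HLA genes are therefore uncertain, as are those of the IFITM genes. HLA-F shares 257 exon bases with HLA-F-AS1 on the opposite strand, ERAP1 shares 200 with CAST and SAMHD1 shares 205 with C20orf118. Whether strand was used in the counting is not given in the sources used here.

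None of the 4 genes of peptide loading and class I control met the criteria. TAPBP (tapasin), which bridges class I molecules to the peptide transporter, was at 121 and 129 CPM against 121 and 110 CPM. ERAP1 and ERAP2, which trim peptides in the endoplasmic reticulum, were lower in both treated samples than in both vehicle samples, with log2 fold changes of -0.16 and -0.30. NLRC5, the transactivator of class I genes, was at 0.767 and 0.985 CPM against 1.09 and 1.36 CPM, on 23 to 44 reads. Its log2 fold change was 0.49 with a standard error of 0.40.

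Receptors and kinases differed little. The type I receptor chains IFNAR1 and IFNAR2 had log2 fold changes of 0.07 and -0.09, and the type II chains IFNGR1 and IFNGR2 of 0.15 and 0.15. TYK2, the most highly counted, was at 158 and 150 CPM with vehicle and at 147 and 163 CPM with LY500307. JAK2 was at 44.9 and 44.2 CPM against 42.3 and 37.4 CPM, a log2 fold change of -0.16 (standard error 0.12). For all 7 genes of this group, the log2 fold change lay between -0.16 and 0.15, and 0 had an unadjusted p below 0.05.

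Among the transcription factors, STAT3 was at 134 and 137 CPM with vehicle and at 147 and 160 CPM with LY500307. Its log2 fold change was 0.18 (standard error 0.10). STAT2 and IRF9, which act together in the ISGF3 complex, had log2 fold changes of -0.05 and -0.28. IRF9 was at 22.2 and 26.8 CPM against 22.0 and 18.3 CPM. Its treated samples were below its vehicle samples, although LY500307 replicate 1 and vehicle replicate 1 were nearly level. IRF1 had 70 to 126 reads and a log2 fold change of 0.18, and IRF3 had one of -0.09. None of these 5 met the criteria.

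The 4 IFIT genes, a chromosome 10 cluster whose products bind foreign RNA or translation factors, had log2 fold changes below 0. IFIT1 was at 269 and 271 CPM with vehicle and at 275 and 248 CPM with LY500307, a log2 fold change of -0.04. IFIT5 had one of -0.01. IFIT2 was at 29.9 and 30.2 CPM against 25.8 and 22.0 CPM. It was lower in both treated samples, with a log2 fold change of -0.33 (standard error 0.14) that met the p criterion but not the fold criterion. The p criterion was not met with DESeq2 (-0.32), library totals (-0.29), the replicate block (-0.33) or the GC correction (-0.26). It was met with DESeq2 size factors in edgeR and with the other filters on low counts. IFIT3 was at 11.3 and 12.4 CPM against 11.0 and 7.80 CPM, also -0.33 (standard error 0.20). It met the criteria only without LY500307 replicate 1, at -0.60, and was -0.11 without LY500307 replicate 2. IFIT1 and IFIT5 took small positive values with a GC correction, 0.02 and 0.11.

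The IFITM genes lie in a cluster on chromosome 11 and encode entry inhibitors of the cell surface and endosome. IFITM1 was at 118 and 120 CPM with vehicle and at 137 and 179 CPM with LY500307. Both treated samples were higher, with a mean of 158 ± 29.4 against 119 ± 1.40 CPM (SD, n = 2 each). The log2 fold change was 0.41 (standard error 0.13), under the fold criterion, and ran from 0.21 to 0.59 when samples were left out in turn, with both criteria met without LY500307 replicate 1. IFITM3 was at 174 and 191 CPM against 216 and 207 CPM, a log2 fold change of 0.21 (standard error 0.10). IFITM2 was at 6.94 and 11.2 CPM against 10.5 and 5.57 CPM, so that replicates of each group differed more than the groups did.

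Of the 8 antiviral effectors, 0 met the criteria, 5 were higher and 1 was lower in both treated samples, where 24.2% and 24.4% of all genes tested were so. BST2, which holds budding virions at the membrane, was at 104 and 107 CPM against 117 and 112 CPM. TRIM22 was at 2.97 and 3.13 CPM against 4.67 and 3.96 CPM, a log2 fold change of 0.50 with a standard error of 0.24. It met the criteria without LY500307 replicate 2 (0.62) and with a GC correction (0.56). MX1, a GTPase active against influenza virus, was at 3.20 and 3.27 CPM against 3.98 and 3.84 CPM. The genes of the oligoadenylate synthetase family were not alike. OAS2 had a log2 fold change of 0.32 and OAS3 of -0.16. OAS1 rested on 13 to 18 reads. OASL had 0 and 9 reads with vehicle and 15 and 16 with LY500307, and its log2 fold change of 1.55 had a standard error of 0.99. Its vehicle reads were too few for the expression filter, which it passed through the LY500307 samples alone. It is counted among the 5 effectors higher in both treated samples. Leaving out vehicle replicate 1 gave 0.54. Leaving out vehicle replicate 2, so that the vehicle group had 0 reads, gave a fitted value of 6.92 that met both criteria but depends on the prior count. SAMHD1, which depletes nucleotides, had one of 0.12.

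The RNA sensors DDX58 (RIG-I) and IFIH1 (MDA5) had log2 fold changes of -0.18 and -0.20. DDX58 was at 31.0 and 35.0 CPM with vehicle and at 32.8 and 25.6 CPM with LY500307, and IFIH1 at 4.70 and 4.12 against 3.77 and 3.93 CPM. PARP9 and its partner, the ubiquitin ligase DTX3L, start 38 bases apart on opposite strands of chromosome 3 (GRCh37). PARP9 was at 17.2 and 16.5 CPM against 15.9 and 13.0 CPM and DTX3L at 26.5 and 22.7 against 24.0 and 22.5 CPM. SP100, a component of nuclear bodies, had 6 and 15 reads against 14 and 15. None of these 5 had an unadjusted p below 0.05.

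The treated samples differed from each other more than the vehicle samples. A chi-square of the gene counts, divided by its degrees of freedom, was 42.5 for the LY500307 pair and 5.16 for the vehicle pair. Against the mean of the vehicle samples, ISG15 was higher by 0.39 in LY500307 replicate 1 and by 1.01 in replicate 2 on the log2(CPM + 0.5) scale. HLA-B was higher by 0.21 and 0.63, and IFITM1 by 0.20 and 0.58. IFI35 and TRIM22 were in the opposite order, with 0.55 and 0.44 for IFI35 and 0.54 and 0.33 for TRIM22. Over the 45 members, replicate 2 was above replicate 1 in 21.

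**Figure D4:**
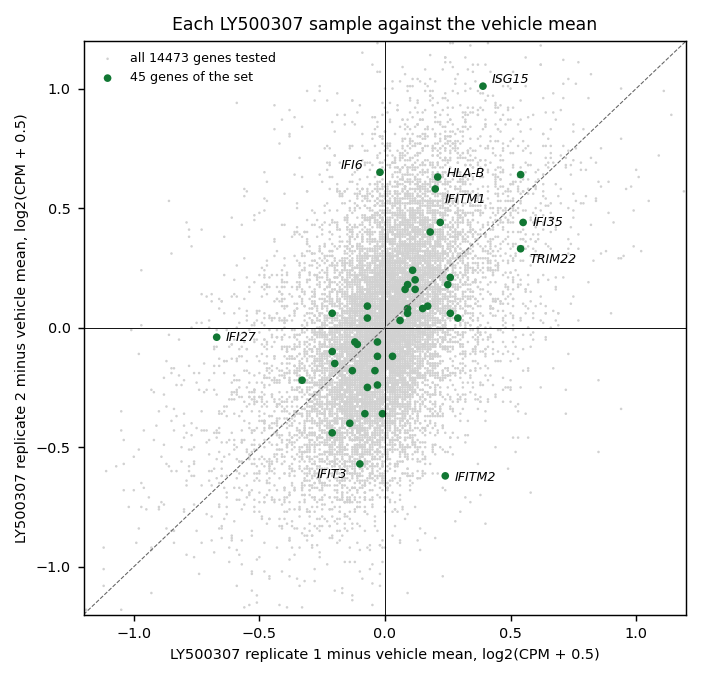
Difference of LY500307 replicate 1 (x axis) and of LY500307 replicate 2 (y axis) from the mean of the vehicle samples, on the log2(CPM + 0.5) scale, for the 45 genes of the set (green) and all 14473 genes tested (grey; 64 lie outside the plotted range); both axes use the same vehicle samples. ISG15, IFI6, HLA-B and IFITM1 lie above the dashed line of equal difference, IFI35 and TRIM22 below it, and IFITM2 is positive in replicate 1 and negative in replicate 2.

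Base composition moved with these differences. The Spearman correlation across genes of transcript GC content with the log2 fold change was 0.34 over the genes tested that had a GC value and 0.36 over the 45 members, which share the 4 libraries. ISG15 has a GC content of 64.2% and IFI35 of 58.8%, whereas the IFIT genes have 37.6% to 44.4%. Other members did not follow this order. IRF3 has 61.3% and a log2 fold change of -0.09, IFI27 has 58.0% and -0.74, and TRIM22 has 41.9% and 0.50. The part of GC content in these differences was not tested. With a loess correction for GC content in each sample, chosen after the data were seen, ISG15 had a log2 fold change of 0.59 and kept its call, and IFI35 had 0.45 and lost it. HLA-B was at 0.34, IFITM1 at 0.33 and IFIT2 at -0.26 with that correction.

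Promoter sequences from RefSeq (GRCh38.p14, 250 bases before to 50 after each start) were found for 39 of the 49 members, DDX58 by its current symbol. The ISRE letters, a pair of GAAA blocks with any 2 bases between them, searched on both strands with overlapping matches allowed, were present in 22 of the 39 (56.4%), against 4.38% of all 27305 genes with such a sequence. A match describes letters and not a bound site. The 6 windows shown are examples from members with a call, a p below 0.05 or a high level, in 5 of the 10 roles, and are written on the gene's own strand from 5′ to 3′ with the match in capitals. They lie at chr1:1013364-1013413 (ISG15), chr11:313980-314029 (IFITM1), chr11:320883-320932 (IFITM3), chr10:89392487-89392536 (IFIT1), chr19:17405731-17405780 (BST2) and chr15:44711353-44711402 (B2M), with IFITM3 and BST2 on the minus strand and the others on the plus strand.
ISG15: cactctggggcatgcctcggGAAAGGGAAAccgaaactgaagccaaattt
IFITM1: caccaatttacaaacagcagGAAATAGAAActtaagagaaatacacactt
IFITM3: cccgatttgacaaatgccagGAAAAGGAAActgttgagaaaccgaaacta
IFIT1: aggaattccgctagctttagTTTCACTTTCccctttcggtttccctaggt
BST2: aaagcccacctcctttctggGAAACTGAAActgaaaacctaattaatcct
B2M: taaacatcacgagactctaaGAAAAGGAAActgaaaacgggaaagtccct

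Relative to the start, the match begins at -113 in ISG15, -40 in IFITM1, -52 in IFITM3, -116 in IFIT1, -130 in BST2 and -144 in B2M, and in IFIT1 it is read on the opposite strand. Each of these 6 promoters holds another match further downstream, which overlaps the one shown in ISG15 (-107), BST2 (-124) and B2M (-138). Among members with a promoter sequence, the letters were present in 6 of 7 IFI and ISG genes, 3 of 3 IFIT genes and 2 of 2 IFITM genes, and in 0 of 6 receptor and kinase genes. A link between the letters and the differences after LY500307 was not tested. Among all genes tested, 50.0% had a positive log2 fold change and 4.62% were called. Of the 19 tested members that hold the letters, 7 had a positive log2 fold change and 1 (ISG15) was called, with a median of -0.08. Of the 17 tested members whose windows lack the letters, 12 were positive and 1 (IFI35) was called, with a median of 0.12. Of the 9 tested members with no promoter sequence, 5 were positive and 0 were called, with a median of 0.09. The IFI35 window holds the letters TTCNNNGAA, a pattern of the gamma-activated site, which were present in 8 of 39 members and 9.38% of all genes. The palindromic estrogen response element was found in 0 of the 39 members and 0.0732% of all genes.

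Other genes of the pathway were read from lists written by hand. Of 46 other interferon-stimulated genes tested, 3 were called higher and 0 lower, with a median log2 fold change of -0.05. For this and the next lists, the shares called among all genes tested were 2.76% higher and 1.86% lower. The 3 were IFI27L2 (0.74, standard error 0.18), LGALS3BP (0.68, standard error 0.24), which encodes a secreted galectin-binding glycoprotein, and IFI27L1 (0.59, standard error 0.19). IFI27L2 was at 9.24 and 8.09 CPM with vehicle and at 12.8 and 16.2 CPM with LY500307. LGALS3BP was at 3.04 and 2.57 CPM against 4.18 and 4.80 CPM, and IFI27L1 at 4.97 and 4.86 against 6.94 and 7.83 CPM. In all 3, both treated samples lay above both vehicle samples. UBE2L6, the conjugating enzyme that transfers ISG15 to its substrates, was named after its values were seen. It was at 205 and 207 CPM with vehicle and at 260 and 273 CPM with LY500307. The log2 fold change, 0.37 (standard error 0.10), did not reach the fold criterion. In the lists that follow, RFXANK (0.39), TBK1 (-0.25) and TRIM24 (-0.34) also had an unadjusted p below 0.05 with edgeR without being called.

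Of 19 other antigen presentation genes tested, 1 was called higher and 0 lower. TAP1, a chain of the transporter that carries peptides into the endoplasmic reticulum, was at 6.91 and 6.93 CPM with vehicle and at 9.77 and 14.4 CPM with LY500307. Its log2 fold change was 0.80 (standard error 0.22), and LY500307 replicate 2 again lay above replicate 1. Against the vehicle mean, it was higher by 0.47 in replicate 1 and by 1.01 in replicate 2 on the log2(CPM + 0.5) scale. The call was lost without LY500307 replicate 2. Of 11 sensing adaptors and kinases tested, TREX1, a DNA exonuclease, was called lower. It was at 3.04 and 2.53 CPM with vehicle and at 1.56 and 1.92 CPM with LY500307, on 54 to 91 reads per sample, and its log2 fold change was -0.68 (standard error 0.29). The call was lost with DESeq2, DESeq2 size factors, library totals or the replicate block, and without vehicle replicate 1, vehicle replicate 2 or LY500307 replicate 1. Of 16 genes listed by hand under restraint of interferon signalling, 0 were called by edgeR and 1 had an unadjusted p below 0.05. The 7 tested genes of the HLA class II list, which includes CD74, all had positive log2 fold changes, from 0.13 to 0.92. Among all genes tested, 50.0% were positive. The class II median was 0.36, against 0.00 over all genes tested. Relative to the vehicle mean on the log2(CPM + 0.5) scale, that median was 0.54 for treated replicate 1 but 0.12 for replicate 2. HLA-DPA1 (-0.18) and CD74 (-0.03) were below the vehicle mean in replicate 2. Groups overlapped for both genes and for HLA-DRB1. Both treated samples were above vehicle for HLA-DQB1, HLA-DMA, HLA-DMB and HLA-DOA. The largest log2 fold change, for HLA-DRB1, rested on 3 to 22 reads. Of the 7, only HLA-DOA, a modulator of class II peptide loading, was called higher. It was at 19.9 and 17.0 CPM with vehicle and at 27.0 and 26.9 CPM with LY500307, and its log2 fold change was 0.55 (standard error 0.14). The class II transactivator CIITA had 0 reads in all 4 samples. None of the genes called in these lists had an adjusted p below 0.05 with edgeR.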

How the data were processed

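Per the labels, the study's methods and the submitters' processing notes, 50 nt single-end reads were aligned to hg19 with TopHat2 2.0.8b and counted on gene symbols with HTSeq, and the authors deposited raw counts. The study's methods name stranded mRNA libraries, whereas the labels name total RNA libraries. Tally lines for uncounted reads, 50.0% to 54.4% of each file, were left out. The 49 members and all gene lists were chosen with earlier results of these data known. In R 4.3.3, 14473 genes passed filterByExpr and were tested with edgeR 4.0.16 (TMM, quasi-likelihood test, Benjamini-Hochberg adjustment over all genes), with all 4 samples and no covariate. DESeq2 1.42.0 was an alternative. A standard error is the absolute log2 fold change divided by the square root of F. Any member could be named. Values in every sample were given for members with p below 0.05. In each role, they were given for the most highly counted member and that with the largest absolute log2 fold change. Untested members were given as reads. From the lists, values were given for called genes, and for UBE2L6 after its values were seen. Transcript length and GC content came from GENCODE canonical transcripts on GRCh37 (84.8% of symbols matched, 94.0% of genes tested). On simulated counts of 14299 genes, 94.9% of genes given a log2 difference of 1 met the criteria, as did 256 unchanged genes. The simulation drew genes independently, with the same dispersion in both groups, unlike these samples. Its difference was larger than that of every member tested except OASL. It therefore does not give the rate of missed or false calls in these data.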

Additional observations from a re-analysis of the deposited data

How the results depend on the processing

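With each sample left out in turn, where a lone sample is assumed to vary like the remaining pair, the members called ranged from 1 to 4 higher and from 0 to 2 lower, and those with an adjusted p below 0.05 from 0 to 13. The highest values came without LY500307 replicate 1. Over all genes the ranges were 352 to 1987 DEGs, 148 to 1067 higher, 204 to 920 lower and 0 to 5002 with an adjusted p below 0.05. The median of members ran from 0.02 to 0.06, and was 0.08 with library totals and 0.02 with the GC correction, with or without the block. Called genes ranged from 2 to 6 among other interferon-stimulated genes, 0 to 5 among other antigen presentation genes and 0 to 1 among sensing genes. An adjusted p below 0.05 was reached by 0 genes with edgeR (1678 at an unadjusted p below 0.05), 1 with the replicate block, 7 with the block and GC correction and 20 with DESeq2. Same-numbered samples had deviations correlated at -0.07, so replicate numbers were not taken as pairs, and with the replicate block 2 members were called. With the block and GC correction 1 member was called higher, and the share of DEGs that were higher was 46.8%, against 59.8%. Other antigen presentation genes called were 2 without a filter, with DESeq2 or with the block, and 3 with the block and GC correction. Sensing genes called were 0 with DESeq2, DESeq2 size factors, library totals and the block. For each of these, the cause was not tested.

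Signs that changed belonged to members never called with all samples. With the GC correction, with or without the block, TYK2 was at -0.11, IFIT1 at 0.02 and IFIT5 at 0.11, and IFIT5 was at 0.03 with library totals. With samples left out, log2 fold changes ranged from -0.06 to 0.09 for TYK2, -0.12 to 0.03 for STAT2, -0.03 to 0.42 for IRF1, -0.11 to 0.51 for ISG20, -0.02 to 0.69 for IFI6, -0.12 to 0.03 for IFIT1, -0.06 to 0.04 for IFIT5, -0.70 to 0.21 for IFITM2, -0.45 to 0.12 for OAS1, -0.01 to 0.27 for SAMHD1, -0.19 to 0.03 for DTX3L and -0.28 to 1.10 for SP100. The GC correction and its fit with the block were chosen after the data were seen.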
